A study of Homo sapiens with 18 samples.

Results

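HAND1, HAND2, ISL1, NKX2-5, MEF2C, TBX2, TBX3, TBX4, TBX5 and TBX20 encode transcription factors of the lateral plate and cardiac mesoderm, and were read by symbol from a table of read counts for 57133 genes. These 10 genes were taken from a list of names of developmental regulators of heart, limb bud and body wall. They and the further lists below were chosen with earlier results of these data known. RNA-seq was performed on the PGP1 cell line, an established human induced pluripotent stem cell (PSC) line grown in mTeSR1 on Matrigel, with 2 libraries each for wild-type (WT) cells and for the knockout lines PCGF6-KO clone 1 and clone 2. PCGF6 is a Polycomb group protein of a non-canonical PRC1 complex, which represses developmental genes, and the comparison asks what its loss does to transcription in undifferentiated PSCs. The knockouts were made with CRISPR/Cas9 guides to the first exon of PCGF6, and each knockout line is a single clone of PGP1. Nothing in the labels says that the libraries of a group came from separate cultures, so the p-values measure the spread between libraries, which may be technical. PCGF6-KO against WT pools 4 libraries of 2 clones, so its test counts libraries of the same clone as separate.

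The lateral plate is the mesoderm that forms the heart, the limb buds, the ventral body wall and, continuous with it, mesoderm outside the embryo. HAND1 and HAND2 are basic helix-loop-helix factors of the lateral plate and the heart ventricles, ISL1 is a LIM-homeodomain factor of cardiac progenitors, NKX2-5 is a homeodomain factor of early cardiomyocytes, and MEF2C is a MADS-box factor of cardiac and skeletal muscle. The T-box proteins bind DNA through a shared domain: TBX5 acts in the heart and forelimb, TBX4 in the hindlimb and lung, TBX20 in the heart, and TBX2 and TBX3 are mainly repressors, with roles in the cardiac conduction system and limb. Undifferentiated PSCs are not known for expressing these genes at a high level.

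The libraries held between 15877396 and 18918609 counts, so that 3 counts correspond to 0.180 to 0.184 CPM (counts relative to the library size, scaled by the TMM method of edgeR) in WT. PCGF6, counted over the whole gene and not over the deleted part, had 268 and 300 counts in the WT libraries, against 99 and 103 for clone 1 and 187 and 159 for clone 2, so its RNA was lower in both clones and was still counted. Of the defining PSC genes, POU5F1 stood at 1495 ± 4.77 CPM (SD, n = 2) in WT against 1508 ± 87.0 CPM (n = 4) in PCGF6-KO, and SOX2 at 327 ± 0.291 CPM (n = 2) against 203 ± 50.2 CPM (n = 4). In bulk RNA, a change in the share of cells that express a gene and a change in its RNA per cell cannot be told apart.

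The start regions of 4 of the genes are shown because 3 of these genes went from 0 counts in WT to a measured level in both clones and the remaining gene, ISL1, rose from few counts. Each runs from 250 bases before the RefSeq start to 50 bases after it, on the gene's own strand, 5′ to 3′ (GRCh38.p14), with CpG dinucleotides in capitals. They lie at chr5:154478178-154478477 on the reverse strand (HAND1), chr4:173530180-173530479 on the reverse strand (HAND2), chr5:51383198-51383497 on the forward strand (ISL1) and chr7:35254051-35254350 on the reverse strand (TBX20).
HAND1: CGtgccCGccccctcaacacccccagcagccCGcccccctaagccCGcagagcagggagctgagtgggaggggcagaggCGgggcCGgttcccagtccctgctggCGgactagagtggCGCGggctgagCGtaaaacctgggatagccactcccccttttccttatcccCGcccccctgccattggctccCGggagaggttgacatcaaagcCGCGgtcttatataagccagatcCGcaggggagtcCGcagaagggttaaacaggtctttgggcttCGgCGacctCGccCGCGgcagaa
HAND2: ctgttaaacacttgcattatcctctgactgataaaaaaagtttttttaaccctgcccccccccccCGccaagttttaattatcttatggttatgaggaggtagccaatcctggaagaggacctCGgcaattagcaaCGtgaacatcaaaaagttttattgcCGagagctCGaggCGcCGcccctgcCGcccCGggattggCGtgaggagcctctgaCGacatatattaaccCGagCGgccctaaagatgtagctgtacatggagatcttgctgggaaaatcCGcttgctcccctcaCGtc
ISL1: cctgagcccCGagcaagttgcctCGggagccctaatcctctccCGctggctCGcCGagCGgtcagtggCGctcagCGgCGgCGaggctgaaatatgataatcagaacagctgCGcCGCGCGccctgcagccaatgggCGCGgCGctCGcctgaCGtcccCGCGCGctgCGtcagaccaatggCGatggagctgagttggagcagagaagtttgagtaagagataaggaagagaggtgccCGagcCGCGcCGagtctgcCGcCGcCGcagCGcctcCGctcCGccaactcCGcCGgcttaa
TBX20: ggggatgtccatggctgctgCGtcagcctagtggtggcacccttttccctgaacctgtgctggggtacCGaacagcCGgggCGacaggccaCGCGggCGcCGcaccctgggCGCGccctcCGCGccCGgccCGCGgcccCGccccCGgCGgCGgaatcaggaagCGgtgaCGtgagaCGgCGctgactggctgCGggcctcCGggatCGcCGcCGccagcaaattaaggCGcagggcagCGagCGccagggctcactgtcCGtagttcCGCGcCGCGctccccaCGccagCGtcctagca
These windows held 21 CpG (HAND1), 15 (HAND2), 36 (ISL1) and 38 (TBX20), where the median over the 35116 promoters of the RefSeq table was 14. The G and C content was 66.0%, 50.3%, 66.7% and 73.3%, against a median of 58.7%. More CpG than in ISL1 and TBX20 was found in 11.3% and 8.70% of all promoters, and more than in HAND1 and HAND2 in 37.7% and 47.5%. The letters TATAA on the gene strand between −40 and −20 were found in the HAND1 window, at −28, and in 3.91% of all promoters. The table held an entry for 7 of the 10 genes (14 start regions in all) and none for NKX2-5, TBX2 and TBX3. Searched on both strands, CACGTG, the E-box bound by MAX, was found in the TBX4 window, whose RefSeq start lies 4084 bases from the GENCODE gene start, and in 7.26% of all promoters, and GCGGGAA, the letters bound by E2F6, in 0 of the 14 and in 6.55% of all promoters. AGGTGT, the half-site of T-box proteins, was found in 3 of the MEF2C windows and in 11.4% of all promoters. These matches describe letters in a window and not binding.

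The 10 genes differed widely in WT. No WT library had a count of HAND1, HAND2, NKX2-5, TBX2 or TBX20, TBX3 and TBX4 had at most 2 counts, TBX5 at most 4 and ISL1 at most 8, and MEF2C, at 31 and 29 counts, was the only one of them above the filter on low counts in WT. In PCGF6-KO, 9 of the 10 genes were called higher and 0 lower (edgeR's quasi-likelihood test over 17672 genes, Benjamini-Hochberg adjusted p under 0.05 and absolute log2 fold change over 0.6). Over all genes tested, 23.6% were called, 14.9% higher and 8.70% lower. The 9 genes other than MEF2C passed the filter only through the PCGF6-KO libraries and so had to be higher there to be tested, which means that this count cannot be read against that share. Each clone alone gave the same count, 9 higher and 0 lower, where 24.8% of all genes were called in clone 1 (16.0% higher and 8.80% lower) and 29.4% in clone 2 (16.9% and 12.5%). Both comparisons use the same WT libraries. In PCGF6-KO against WT, the adjusted p was 0.00029 for HAND1, 0.00016 for HAND2, 0.00144 for ISL1 and 0.000149 for TBX2 (same edgeR test). It was 0.000419 for TBX3, 5.72e-05 for TBX4 and 0.00666 for TBX20. The adjusted p of each clone alone, given below, is smaller for these genes and leaves out the spread between the clones.

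HAND1 (chromosome 5, 154474972 to 154478227, reverse strand, 2 exons in GENCODE release 44 on GRCh38) had 0 and 0 counts in the WT libraries, against 672 and 770 for clone 1 and 2012 and 1575 for clone 2. The 3 groups did not overlap, and clone 2 was the highest. HAND1 was at least 213-fold higher in clone 1 and at least 574-fold higher in clone 2, measured against 3 counts in each WT library (adjusted p = 2.92e-19 and 5.81e-22 in edgeR's quasi-likelihood test, with adjustment by Benjamini-Hochberg). HAND2 (chromosome 4, 173524969 to 173530229, reverse strand, 2 exons), its closest relative, had 0 and 0 counts in the WT libraries, against 98 and 161 for clone 1 and 249 and 194 for clone 2. The WT and PCGF6-KO libraries of HAND2 were again apart, with the lowest of the 4 in clone 1. HAND2 was at least 38.4-fold higher in clone 1 and at least 70.9-fold higher in clone 2 (adjusted p = 1.28e-11 and 9e-14, same edgeR test).

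HAND2-AS1, a long non-coding RNA gene on the opposite strand that overlaps HAND2, was counted in WT, with 10 and 14 counts, where HAND2 was at 0. It reached 47 and 51 counts in clone 1 and 71 and 68 in clone 2, and the 3 groups did not overlap. The ratio of PCGF6-KO to WT was 4.56 (95% counting interval 2.99 to 7.25), and the fitted log2 fold change was 2.19 with a standard error of 0.35 (adjusted p = 0.00122, same edgeR test). Whether the authors counted by strand is not given in the sources used here, and without strand the reads of the overlapping part cannot be told apart.

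ISL1 (chromosome 5, 51383448 to 51394730, forward strand, 6 exons) had 8 and 5 counts in the WT libraries, against 52 and 69 for clone 1 and 156 and 110 for clone 2. All 4 PCGF6-KO libraries lay above WT, and those of clone 2 above those of clone 1. On the log2 scale it rose by 3.02 (standard error 0.36) in clone 1 and by 4.27 (standard error 0.32) in clone 2, with adjusted p = 1.36e-07 and 1.09e-11 by the same edgeR test. Because ISL1 also marks motor and sympathetic neurons, a list of 12 markers of these and neural crest cells was counted. Its summed level was 7.13 to 7.49 CPM in WT, 11.2 to 13.3 in clone 1 and 10.9 to 12.1 in clone 2. Of its 6 genes that were tested, MNX1, ISL2, SOX10 and TFAP2B were called higher and DBH lower (all genes tested: 14.9% higher, 8.70% lower). This count cannot be read against that share, since MNX1, ISL2 and TFAP2B were under the filter level in at least 1 WT library. MNX1, a motor neuron gene, had 0 and 0 counts in the WT libraries, against 8 and 7 for clone 1 and 15 and 13 for clone 2, and LHX3, another, had at most 2 counts in any library.

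NKX2-5 (chromosome 5, 173232109 to 173235311, reverse strand, 2 exons) had 0 and 0 counts in the WT libraries, against 5 and 6 for clone 1 and 11 and 10 for clone 2. These were the fewest counts in PCGF6-KO of the genes called, and the groups did not overlap. NKX2-5 was at least 1.63-fold higher in clone 1 and at least 3.38-fold higher in clone 2 (adjusted p = 0.0054 and 0.000197, same edgeR test). Without WT replicate 1 or 2, the adjusted p of PCGF6-KO against WT was 0.0543 or 0.0559, where it was 0.00907 with both, and that of clone 1 was 0.0527 or 0.0554. Without any 1 PCGF6-KO library NKX2-5 no longer passed the filter.

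MEF2C (chromosome 5, 88717117 to 88904257, reverse strand, 11 exons) had 31 and 29 counts in the WT libraries, against 55 and 51 for clone 1 and 63 and 65 for clone 2. The WT libraries were below all 4 PCGF6-KO libraries, by less than for the other genes called. On the log2 scale it rose by 0.64 (standard error 0.26) in clone 1 and by 1.04 (standard error 0.25) in clone 2, with adjusted p = 0.0442 and 0.00103 by the same edgeR test. The call in clone 1 was lost with DESeq2 (adjusted p = 0.27), without the filter (0.0583) and with upper-quartile normalization (0.0512), and without any 1 WT or clone 1 library (0.0857 to 0.176). That of PCGF6-KO against WT, a log2 difference of 0.85 with a standard error of 0.25 (adjusted p = 0.0242), was likewise lost with DESeq2 (0.0597) and without WT replicate 1 (0.106) or 2 (0.149). Of the overlapping antisense genes, MEF2C-AS1 had between 1 and 5 counts in each library and MEF2C-AS2 had 0. Of the other genes of the MEF2 family that could be tested, neither passed the test, with log2 fold changes of −0.03 for MEF2A (adjusted p = 0.834) and −0.05 for MEF2D (adjusted p = 0.765).

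Of the 5 T-box genes among the 10, TBX3 and TBX4 had the highest TPM in PCGF6-KO. TBX3 (chromosome 12, 114670255 to 114684175, reverse strand, 7 exons) had 2 and 2 counts in the WT libraries, against 366 and 359 for clone 1 and 1149 and 981 for clone 2. TBX4 (chromosome 17, 61452404 to 61485110, forward strand, 9 exons) had 1 and 0 counts in the WT libraries, against 155 and 160 for clone 1 and 312 and 271 for clone 2. For both genes the 3 groups did not overlap and clone 2 was the highest. The ratio to WT of TBX3 was 160 in clone 1 (95% counting interval 62.3 to 590) and 514 in clone 2 (200.3 to 1887). That of TBX4 was 278 in clone 1 (49.6 to 11033) and 562 in clone 2 (100.5 to 22252). The width of these intervals comes from the few WT counts. Both genes were called in each clone, with adjusted p = 2.13e-18 and 3.21e-22 for TBX3 and 2.07e-14 and 5.16e-17 for TBX4 (same edgeR test).

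TBX2, TBX20 and TBX5 stayed at low levels. TBX2 (chromosome 17, 61399843 to 61409466, forward strand, 7 exons) had 0 and 0 counts in the WT libraries, against 27 and 26 for clone 1 and 24 and 23 for clone 2. The PCGF6-KO libraries of TBX2 were close to each other and apart from WT, at least 7.81-fold higher in clone 1 and at least 7.57-fold higher in clone 2 (adjusted p = 7.23e-07 and 8.09e-07, same edgeR test). TBX20 (chromosome 7, 35202430 to 35254100, reverse strand, 8 exons) had 0 and 0 counts in the WT libraries, against 13 and 8 for clone 1 and 27 and 28 for clone 2. Its 3 groups did not overlap, and it was at least 3.08-fold higher in clone 1 and at least 8.88-fold higher in clone 2 (adjusted p = 0.000288 and 4.72e-07, same edgeR test). TBX5 (chromosome 12, 114353911 to 114408442, reverse strand, 9 exons) had 4 and 2 counts in the WT libraries, against 13 and 6 for clone 1 and 11 and 7 for clone 2. Every PCGF6-KO library was above WT, but the lower of them by only 2 counts, and TBX5 was the 1 gene of the 10 that was not called. Its log2 fold change in PCGF6-KO came to 1.47 with a standard error of 0.58 and a 95% interval from 0.15 to 2.79 (adjusted p = 0.0787, same edgeR test). TBX5-AS1, on the opposite strand, had at most 3 counts in a library and TBX2-AS1 at most 2.

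Clone 2 had the higher level of most of these genes, in a comparison that uses the WT libraries only for the shared spread and the filter. Clone 2 was higher for 6 of the 10 genes and lower for 0, where 7.87% of all genes tested were called, 3.73% higher and 4.14% lower. The log2 difference, clone 2 minus clone 1, was 1.68 (standard error 0.09) for TBX3, 1.51 (0.42) for TBX20, 1.43 (0.09) for HAND1, 1.25 (0.21) for ISL1, 1.01 (0.14) for TBX4 and 0.89 (0.18) for HAND2. The adjusted p of these differences was 5.7e-13, 0.0119, 2.34e-11, 6.77e-05, 4.11e-06 and 0.000852 in the same order (edgeR's quasi-likelihood test, Benjamini-Hochberg adjusted over all genes).

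**Figure D1:**
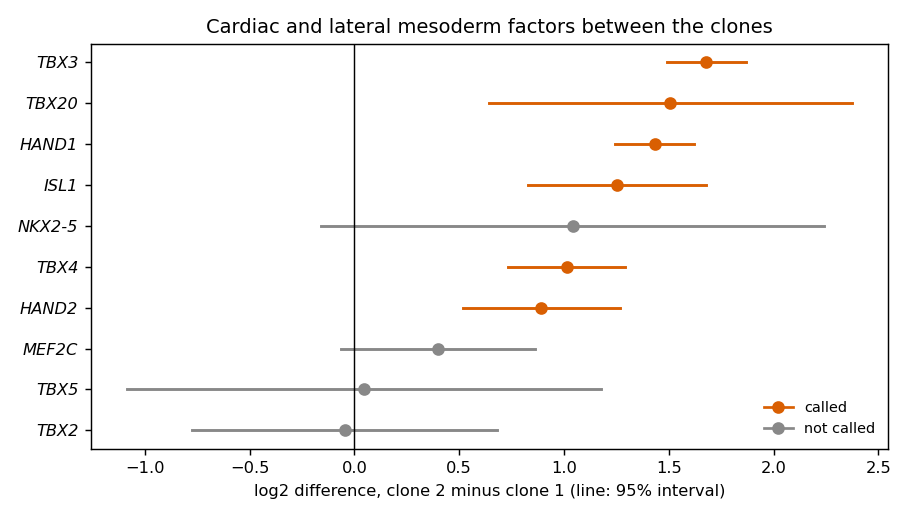
Log2 difference between the PCGF6-KO clones (clone 2 minus clone 1) for the 10 genes, with points for the fitted difference and lines for its 95% interval. The 6 genes in orange were called higher in clone 2, and the intervals of the 4 in grey include 0.

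The 4 other genes were not called between the clones. For NKX2-5 the difference was 1.04, with a 95% interval from −0.16 to 2.24 that holds the size seen for HAND1 and TBX3 (adjusted p = 0.233, same edgeR test). For MEF2C it was 0.40 (−0.06 to 0.86, adjusted p = 0.235), with an interval that ends below the differences of HAND1 and TBX3. TBX2 differed by −0.05 (−0.77 to 0.68, adjusted p = 0.950), so that its interval too ends below those values. TBX5 differed by 0.05, with an interval from −1.08 to 1.18 (adjusted p = 0.970). The call of TBX20 was lost with DESeq2 (adjusted p = 0.213), without replicate 2 of clone 1 (0.0878) and without replicate 2 of clone 2 (0.0812), and that of HAND2 without replicate 1 of clone 1, where the difference was 0.55 (adjusted p = 0.0335), under the fold change threshold. PCGF6 itself was higher in clone 2 than in clone 1, with a log2 difference of 0.90 and a standard error of 0.15 (adjusted p = 5.44e-05, same edgeR test), so that the clone with more counts of PCGF6 also had more of these 6 genes. With 1 clone on each side, a difference between clones and any other property of the lines cannot be told apart.

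Levels of different genes were compared as TPM, a level relative to the library that divides by the length of the gene given beside the counts. In clone 1 the order was HAND1 (97.5 ± 13.7 TPM, SD, n = 2), TBX3 (14.3 ± 0.450), TBX4 (9.25 ± 0.625), HAND2 (8.50 ± 3.28), ISL1 (4.94 ± 1.20), TBX20 (1.30 ± 0.383), MEF2C (1.06 ± 0.00869), TBX2 (1.03 ± 0.0190), NKX2-5 (0.618 ± 0.107) and TBX5 (0.505 ± 0.243). Within these SDs, TBX4 and HAND2, HAND2 and ISL1, TBX20 and MEF2C, MEF2C and TBX2, and NKX2-5 and TBX5 did not differ in clone 1. In clone 2 the first 7 had the same order, HAND1 (247 ± 20.3), TBX3 (43.0 ± 0.889), TBX4 (17.5 ± 0.149), HAND2 (14.7 ± 1.26), ISL1 (11.0 ± 1.71), TBX20 (3.55 ± 0.413) and MEF2C (1.32 ± 0.149), before NKX2-5 (1.21 ± 0.0286), TBX2 (0.940 ± 0.0573) and TBX5 (0.491 ± 0.111). There, MEF2C and NKX2-5 were the only neighbours in the order that did not differ beyond their SDs. In WT, MEF2C had 0.689 TPM and ISL1 0.610 TPM, TBX5, TBX3 and TBX4 lay under 0.2 TPM, and the other 5 were at 0. The length of MEF2C, 11755 bases, is that of all its exons joined, which lowers its TPM against shorter genes.

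**Figure D2:**
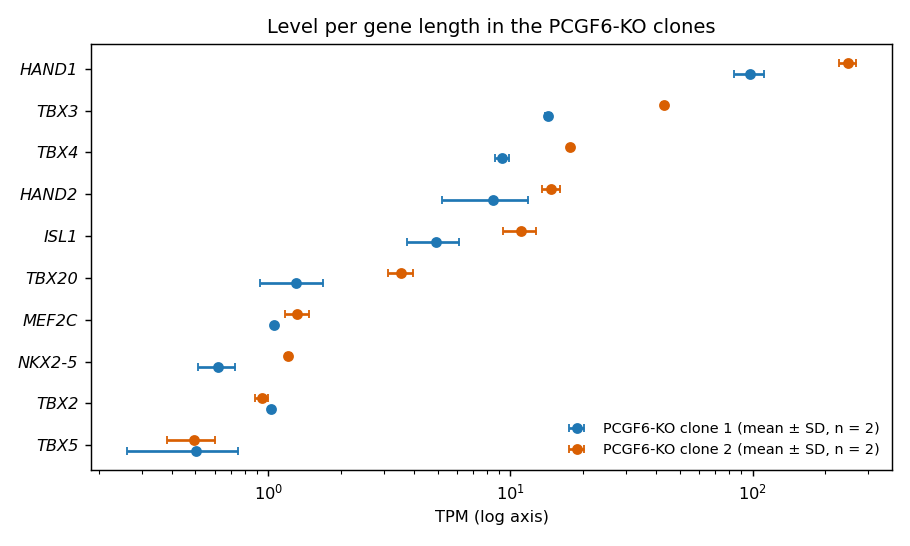
TPM (log axis) of the 10 genes in PCGF6-KO clone 1 and clone 2, as the mean with its SD over 2 libraries. HAND1 was highest in both clones and TBX5 lowest, and the ranges of mean ± SD of the clones overlapped for TBX5 alone, with clone 1 above clone 2 for TBX2 and below it for the other 8 genes.

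A few of the genes made up most of the total. Summed over the 10 genes, the level was 2.28 to 2.83 CPM in WT, 76.2 to 88.9 in clone 1 and 203 to 221 in clone 2. HAND1 contributed 46.15 to 50.12% of this sum in the PCGF6-KO libraries, TBX3 22.22 to 30.06% and TBX4 7.77 to 10.65%. In WT, MEF2C alone contributed 67.39 and 76.32%.

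Closely related or neighbouring genes differed in level within the same libraries. HAND1 had 14.2, 9.91, 16.7 and 16.8 times the TPM of HAND2 in the 4 PCGF6-KO libraries. TBX2 and TBX4 lie 42.9 kb apart on chromosome 17 with 0 coding genes between them, and TBX4 had 8.66, 9.28, 19.6 and 17.8 times the TPM of TBX2. TBX3 and TBX5 lie 261.8 kb apart on chromosome 12, again with 0 coding genes between them, and TBX3 had 20.6, 43.9, 76.6 and 103 times the TPM of TBX5. In both neighbouring pairs 1 gene was high in PCGF6-KO and the other had at most 27 counts in any library. Both libraries of clone 2 had higher ratios of TBX4 to TBX2 and of TBX3 to TBX5 than those of clone 1, and of these genes TBX4 and TBX3 were called higher in clone 2 while TBX2 and TBX5 were not.

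Most other regulators of the same mesoderm that could be tested were called higher as well. Of 28 further transcription factors and cofactors of heart and lateral mesoderm, 21 were tested, 17 were called higher and 0 lower. Of the 21, 12 were under the filter level in at least 1 WT library and were tested through their PCGF6-KO values, so this count too cannot be read against the share of all genes. The largest fitted log2 fold changes were those of FOXF1, GATA4, GATA6, PRRX1 and MSX2, and that of FOXF1, which was at 0 in WT, is no measured size. GATA4, a zinc finger factor that acts with NKX2-5 and TBX5 in the heart, had 5 and 0 counts in the WT libraries, against 561 and 555 for clone 1 and 1146 and 955 for clone 2. FOXF1, a forkhead factor of the splanchnic lateral plate, had 0 and 0 counts in the WT libraries, against 19 and 25 for clone 1 and 68 and 56 for clone 2. PRRX1, a homeodomain factor of limb mesenchyme, had 2 and 5, 454 and 579, and 665 and 585 counts in the same order. Each of these genes was apart from WT in all 4 PCGF6-KO libraries. MESP1, which marks the earliest cardiac mesoderm, had 0 and 0 counts in the WT libraries, against 2 and 2 for clone 1 and 13 and 8 for clone 2, too few to be tested. Between the clones, 11 of the 21 were called higher and 0 lower in clone 2, among them GATA4 (1.04 on the log2 scale, standard error 0.10), GATA6 (1.35, 0.15) and FOXF1 (1.61, 0.30).

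Products of heart muscle, on which several of the 10 factors act, did not all move the same way. Of 20 such genes 15 were tested, and 10 were called higher and 1 lower, where 14.9% of all genes tested were called higher and 8.70% lower. Of the 15, 6 were likewise under the filter level in at least 1 WT library. ACTC1, cardiac alpha-actin, had 472 and 477 counts in the WT libraries, against 19810 and 18028 for clone 1 and 26699 and 22177 for clone 2, a log2 fold change of 5.41 with a standard error of 0.21 (adjusted p = 3.84e-07, same edgeR test). MYL7, an atrial myosin light chain, rose from 11 and 9 counts to between 403 and 659, and NPPB, the natriuretic peptide B gene, from 0 and 1 to between 272 and 586. TNNT2, cardiac troponin T, had 106 and 97 counts in WT and between 203 and 244 in PCGF6-KO (log2 fold change 1.03, standard error 0.15, adjusted p = 0.000677). Genes of the mature sarcomere and of calcium handling did not move alike. TTN, titin, had 369 and 352 counts in WT and between 556 and 900 in the knockout libraries, a rise of 0.83 on the log2 scale (adjusted p = 0.0138). RYR2, the cardiac ryanodine receptor, had 263 and 317 counts in WT and between 482 and 687 in the knockout libraries, a rise of 0.88 (adjusted p = 0.000805). TNNC1, MYL3 and MYL4 were called higher too, whereas others had few counts: MYH6 had between 8 and 13 counts in PCGF6-KO (adjusted p = 0.0878, not called), and MYH7 at most 7, MYL2 at most 2, PLN at most 2 and MYBPC3 at most 2, which were not tested. SLC8A1, the sodium-calcium exchanger, was the 1 gene called lower in PCGF6-KO against WT. It had 91 and 101 counts in WT and between 29 and 48 in PCGF6-KO. TNNI3 was not called in that comparison (log2 fold change −1.43, adjusted p = 0.0891). In clone 2 alone TNNI3 was called lower (−2.56, adjusted p = 0.00344, same edgeR test), though at few counts. ACTN2 was called higher in clone 1 against WT (0.87), and lower in clone 2 than in clone 1. SLC8A1, TNNI3 and ACTN2 are named here after their values were seen, as are TTN, RYR2, TNNC1, MYH7, MYL2, PLN and MYBPC3. The summed level of the 20 genes was 88.1 to 89.8 CPM in WT, 1138 to 1188 in clone 1 and 1546 to 1654 in clone 2, most of it ACTC1 in the PCGF6-KO libraries but not in WT, where ACTC1 had 28.8 ± 0.285 CPM.

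Of 12 other genes of the T-box family, 9 were tested, and 8 were called higher and 0 lower (all genes tested: 14.9% higher, 8.70% lower). This count cannot be read against that share, since 5 of the 9 were under the filter level in at least 1 WT library. Those 5 were tested through their PCGF6-KO values. Among these were TBXT (Brachyury) and EOMES, which act in the primitive streak. TBXT had 0 and 12 counts in the WT libraries, against 3508 and 3065 for clone 1 and 5515 and 4636 for clone 2, and EOMES had 3 and 5, 2630 and 2528, and 1615 and 1647. Both were far above WT in every PCGF6-KO library, and EOMES, unlike TBXT, had fewer counts in clone 2 than in clone 1, with a log2 difference of −0.53 and a standard error of 0.07, which is under the fold change threshold (adjusted p = 5e-06). MGA, a T-box protein of the same Polycomb complex as PCGF6, had between 1688 and 2216 counts in all libraries (log2 fold change 0.13, adjusted p = 0.313). Of 10 other genes of the MEF2, ISL and NKX2 families 3 were tested, and ISL2 was called higher, from 1 and 0 counts in the WT libraries to 4 and 3 for clone 1 and 11 and 10 for clone 2 (adjusted p = 0.0465), a call that was lost without any 1 of the libraries.

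Markers of other cell types that use some of the 10 factors moved in the same libraries, and their part in the values above was not tested. Under the filter level in at least 1 WT library, and tested through their PCGF6-KO values, were 5 of 9 tested genes of the primitive streak, 4 of 9 of amnion, 4 of 12 of smooth muscle and stroma and 3 of 6 of motor, sympathetic and neural crest cells. For endothelium these were 2 of 10, with SOX18 among them. Of 10 genes of the primitive streak, 9 were tested and all 9 were called higher, and their sum was 23.6 to 26.0 CPM in WT, 1140 to 1173 in clone 1 and 1344 to 1364 in clone 2. Of 12 markers of amnion, where ISL1, HAND1 and TBX3 are also expressed, 9 were tested and 6 called higher, and the sum was 22.8 to 25.4 CPM, 153 to 160 and 177 to 180. The 6 were TFAP2A (log2 fold change 5.47), TFAP2B, TFAP2C (3.45), GATA3 (4.63), IGFBP5 (4.89) and BNC1 (5.55). Of those not called or not tested, GABRP had between 100 and 140 counts in all libraries (log2 fold change −0.00, adjusted p = 0.987). VTCN1 had at most 7 counts, and ITGB6 was at 0 in 5 of the 6 libraries. WNT6, also not tested, was at 0 in WT and had between 4 and 12 counts in PCGF6-KO. HEY1 (0.04, adjusted p = 0.941) and KRT7 (−0.50, adjusted p = 0.33) were not called. In clone 2 alone KRT7 was called lower against WT (−1.07, adjusted p = 0.00261, same edgeR test). Between the clones, KRT7 was called lower and HEY1 higher in clone 2. Of 12 markers of smooth muscle and stroma, 11 were called higher, among them LUM, COL3A1 and ACTA2, with a sum of 329 to 338 CPM, 2015 to 2186 and 2504 to 2603. Of 10 markers of endothelium, KDR and SOX18 were called higher and CDH5, TIE1 and ERG lower, and the sum was 235 to 241 CPM, 549 to 571 and 534 to 566. Most of this sum was KDR, with a mean of 149 CPM in WT, 483 in clone 1 and 471 in clone 2. Of 12 pluripotency genes, SOX2, DNMT3B, ZFP42 and PRDM14 were called lower and 0 higher, and the sum was 8608 to 8981 CPM in WT, 6667 to 6771 in clone 1 and 6071 to 6239 in clone 2. SOX2 was not called in clone 1 against WT.

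The genes whose log2(CPM + 0.5) followed each factor most closely over the 6 libraries were read as a description, since 2 libraries a group and a step from WT to PCGF6-KO leave many genes close to any factor. Of 15412 genes with an average of at least 1 CPM, 601 had r over 0.99 with HAND1, and the closest were HOXA9, HAPLN1 and HOXB8. For TBX3 there were 486 such genes, led by COL4A1, CNN3 and CEP55, and for TBX4 594, led by GAU1, CDH13 and FZD10. HAND2 had 380, led by ARID3A, HOXA5 and TM4SF1, and TBX2 had 445, led by ARSE, SETD1B and MDGA2. ISL1 had 127 (PARD3B, SBF2-AS1 and SMAD6), NKX2-5 144 (UBE2J1, FOXF1 and AC091820.1), TBX20 47 (AF228730.5, PDZRN3 and MICALL1), MEF2C 34 (SLU7, RNF217 and ENTPD4) and TBX5 4, among them GLIS3, TIMP1 and DHX38. HOXA9 and HOXB8 shared with HAND1 a count of 0 in WT and a higher level in clone 2 than in clone 1, at 6.17 and 11.5 CPM for HOXA9 and 7.34 and 13.5 CPM for HOXB8.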

How the data were processed

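Of the 6 RNA-seq libraries, 2 were from WT and 2 from each PCGF6-KO clone. After adapter trimming with Trim Galore (0.6.2), the authors mapped the reads to GRCh38 by HISAT2 (2.1.0), counted them over genes with featureCounts, and deposited the raw counts with gene lengths. Which annotation release and strand setting were used, and how multi-mapped reads were treated, is not given in the sources used here. ChIP-seq samples were not analysed here. The filterByExpr function of edgeR was run on the 2 genotypes (at least 10 counts, scaled to the library, in 2 libraries and 15 in all), which left 17672 of 57133 genes, and libraries were scaled by TMM. The quasi-likelihood test of edgeR (4.0.16 under R 4.3.3, using limma 3.58.1) set the 4 PCGF6-KO libraries against WT and, in a fit with 3 groups, each clone with WT and the clones with each other. Calls required an adjusted p (Benjamini-Hochberg) under 0.05 together with a log2 fold change beyond 0.6 in either direction, as set in the study's methods. The counting intervals of ratios cover counting error only. Intervals of log2 fold changes and log2 differences come from the standard errors of the edgeR fit, and so include the spread between libraries. Bounds against 3 counts divide the mean CPM of the PCGF6-KO libraries by the CPM of 3 counts in WT. These bounds carry no error of the PCGF6-KO counts. TPM was computed with the deposited gene lengths. Positions are from GENCODE release 44 and start regions from RefSeq, read with Python (3.11.15), numpy (2.4.6), pandas (2.3.3) and matplotlib (3.10.9).

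The genes named were drawn from the 10 factors, PCGF6, genes that overlap or neighbour them, a fixed set of 10 cardiac, streak and pluripotency genes, the up to 5 called genes with the largest change in each list, and the 3 genes closest to each factor over the libraries. Not every gene that this rule picks out is named: TBX18 and TBX10 of the T-box list and SP5 and EVX1 of the streak list, for example, are not described. TTN, RYR2, TNNC1, MYH7, MYL2, PLN, MYBPC3, SLC8A1, TNNI3, ACTN2, LHX3, GABRP, VTCN1, ITGB6, KRT7, HEY1, WNT6, TFAP2C, MEF2A, MEF2D and MGA fall outside this rule and were named after their values were seen. The factors and lists were chosen with earlier results of these data known. As alternatives, DESeq2 (1.42.0) replaced edgeR, RLE or upper-quartile factors replaced TMM, the filter was dropped or raised to 10 counts in every library, other thresholds were set, the clones were averaged or fitted without the third group, the replicate number was added as a block, and each library was left out once. The reported edgeR fit was tested on simulated data in which known genes had been changed, for PCGF6-KO against WT and between the clones. No such test is reported for the other steps or for the alternatives.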

Additional observations from a re-analysis of the deposited data

Results flagged for a closer look

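Of the 10 factors, 6 differed in size of change between the 2 PCGF6-KO clones by the test of the difference itself (edgeR's quasi-likelihood test, Benjamini-Hochberg adjusted over all genes). The log2 difference, clone 2 minus clone 1, was 1.43 for HAND1, 0.89 for HAND2, 1.25 for ISL1, 1.68 for TBX3, 1.01 for TBX4 and 1.51 for TBX20. All 6 were higher in both libraries of clone 2 than in both of clone 1. Among all genes tested, 7.87% were called between the clones, 3.73% higher and 4.14% lower in clone 2.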

How the results depend on the processing

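The counts of called genes were within 1.5 times the reported ones in 104 comparisons with an alternative and moved further in 16. Requiring at least 10 counts in every library left MEF2C as the only 1 of the 10 factors tested, because the others had fewer in WT, and gave 1 call for PCGF6-KO against WT, 1 for clone 1, 1 for clone 2 and 0 between the clones. It also left 5 calls among the other heart and lateral mesoderm factors, 7 among heart muscle products, 3 among the other T-box genes and 0 among the other MEF2, ISL and NKX2 genes. The call of ISL2 was lost under DESeq2 and under the replicate block (0 calls) and without any 1 library (0 to 0 calls). Without 1 library, the factors called ranged from 7 to 8 for PCGF6-KO against WT, 7 to 8 for clone 1, 8 to 9 for clone 2 and 5 to 6 between the clones, and the ranges were 14 to 17, 9 to 11 and 6 to 8 for the other heart and lateral mesoderm factors, heart muscle products and other T-box genes. Between the clones, the TBX2 difference ranged from −0.10 to 0.012 without 1 library and changed sign without replicate 1 of clone 2 (0.012). Of the fold changes of factors still tested under an alternative, 435 kept their direction and side of the threshold, and 1 reversed. In 18 the call was lost, all of them of MEF2C, NKX2-5, TBX20 or HAND2. Cases in which a factor was no longer tested, as under the filter of 10 counts in every library, are not among these. DESeq2 called 8 of the factors for PCGF6-KO, 8 for clone 1, 9 for clone 2 and 5 between the clones, against 9, 9, 9 and 6. An unadjusted p under 0.05 with a fold change over 1.5 called 10, 10, 10 and 6. The share of all genes called under these alternatives is not given here, so the counts show only how the reported ones moved.

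In the fits with the replicate block, the factors called were 9 for PCGF6-KO against WT, 9 for each clone and 6 between the clones, with 16 other heart and lateral mesoderm factors, 11 heart muscle products and 7 other T-box genes. The correlation of the deviations of same-numbered libraries was 0.042 for WT and clone 1, 0.053 for WT and clone 2 and 0.162 for the clones, over 15104 genes, so the numbers were not taken to pair the libraries, which share only a number. The median log2 fold change of all genes in PCGF6-KO was 0.00 under TMM and RLE and −0.03 under upper-quartile normalization. With counts of 0 to 4 in WT for 8 of the 10 factors, the depth limits fold changes to bounds or wide intervals, and NKX2-5 and TBX5 were close to the filter in PCGF6-KO too. Where a library was left out, the lone library of its group was assumed to vary like the others, and NKX2-5, and in some cases TBX5, failed the filter without a PCGF6-KO library.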
